A study of Mus musculus with 8 samples.

Results

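The genes described here encode enzymes that build sugar chains: sialyltransferases, fucosyltransferases, galactosyltransferases, N-acetylglucosaminyltransferases and N-acetylgalactosaminyltransferases, together with the enzymes that start, polymerize and sulfate glycosaminoglycans. Members were the protein-coding genes whose symbols belong to the families St3gal, St6gal, St8sia, Chst, Hs2st, Hs3st, Hs6st, Ndst, Fut, B3gal, B4gal, B3gnt, Galnt, Mgat, Gcnt, Ext, Extl, Has and Xylt. This gave 129 of the 54116 genes in the table, under 128 symbols, since St6galnac2 has a pair of gene identifiers. Mesenchymal stromal cells of the pancreas (pMSCs, 4 libraries) were compared with those of inguinal white adipose tissue (iWAT), the subcutaneous fat of the groin (iwatMSCs, 4 libraries). Both were wild-type cells of male C57BL/6J mice, 8 weeks old and on standard diet, sorted as CD31-, CD45- and SCA1+, grown for 4 days on plastic and given no treatment. Libraries were pools over several mice, and both organs came from the same animals. Whether the 4 pools of an organ held different mice is not given in the sources used here. The p-values therefore reflect only the library-to-library spread, which may be technical.

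Glycosyltransferases sit mainly in the Golgi and add 1 sugar at a time from a nucleotide donor. N-glycans are trimmed, branched and capped on asparagine, O-GalNAc glycans start on serine or threonine, and glycolipids such as gangliosides grow on ceramide. Heparan sulfate and chondroitin sulfate grow on core proteins from a xylose-started linker and are sulfated as they grow, which sets which growth factors they bind. Hyaluronan is made without a core protein at the plasma membrane. Stromal cells are major makers of these matrix chains in the pancreas and in fat.

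Levels are FPKM (fragments scaled to transcript length and library size), summed over the transcripts of a gene, so they are per length. The libraries held between 437673 and 458414 FPKM in all and between 13092 and 13313 genes at 1 FPKM or more. All 8 stromal markers (such as Col1a1 and Dcn) averaged 1 FPKM or more. The CD45 gene Ptprc stayed at 0.0327 FPKM or less in every library, and Pecam1 (CD31) at 0.482 FPKM or less. The summed level of 8 acinar enzyme genes was 235, 138, 45.4 and 61.3 FPKM in pMSC 1 to 4, against 1.81 to 3.71 FPKM in iwatMSCs, with Ctrb1, Cpa1, Prss2 and Amy2a5 at 0 in every iwatMSC library. The summed level of 6 leukocyte genes was 1.48 to 4.03 FPKM in pMSCs and 6.35 to 10.99 FPKM in iwatMSCs, nearly all of it Cd68, with Cd52, Adgre1 and Tyrobp at 0 throughout. The summed level of 5 endothelial genes was 0.502 to 1.301 FPKM in pMSCs and 1.83 to 2.15 FPKM in iwatMSCs. Of 6 duct epithelial genes, Krt18 was at 6.15 to 17.8 FPKM in pMSCs and 0.0443 FPKM or less in iwatMSCs, Krt8 at 4.34 to 11.3 FPKM in pMSCs and 0 in iwatMSCs, and Cdh1 at 1.21 to 1.68 FPKM in pMSCs and 0.169 FPKM or less in iwatMSCs. Epcam was also above, while Krt19 was below in every pMSC library, and Spp1 held nearly all of the list's sum (4543 to 6083 FPKM in pMSCs and 3281 to 3650 FPKM in iwatMSCs). Of 5 mesothelial genes, Upk3b, Lrrn4 and Upk1b were at 1.28 to 7.52 FPKM in pMSCs, highest in pMSC 4, and at 0.152 FPKM or less in iwatMSCs, with Msln at 0.151 FPKM or less throughout. With Krt19, which was nearly all of the sum in iwatMSCs, the sums of this list overlapped (8.13 to 23.1 FPKM in pMSCs and 5.72 to 14.6 FPKM in iwatMSCs). The part of these other cells in the results below was not tested. Calls were repeated without pMSC 1 and 2, the libraries with the most acinar RNA, but pMSC 3 and 4 held the epithelial and mesothelial transcripts too. Krt18 was at 17.8, 15.1, 6.15 and 6.66 FPKM in pMSC 1 to 4 and Krt8 at 11.3, 9.48, 4.34 and 5.13 FPKM. Among pMSCs, Epcam and Krt19 were also highest in pMSC 1 and 2, while Cdh1 and Spp1 were not.

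Of the 129 genes, 71 averaged 1 FPKM or more across all 8 libraries and entered the test with limma on log2(FPKM + 1), pMSC minus iwatMSC, with Benjamini-Hochberg adjustment over all 13345 genes tested. At an adjusted p under 0.05, 16 transferase genes were higher in pMSCs (background 9.02% of all tested genes), 9 were lower (background 10.4%) and 46 did not pass. The 25 called genes were 35.2% of those tested, beside a background of 19.4%. At least 2-fold differences on this scale were reached by 4 higher and 2 lower genes (background 4.8%). The median log2 fold change (log2 FC) was 0.09 over the transferase genes and -0.03 over all tested genes, and the median absolute log2 fold change was 0.25 against 0.17. Fewer cells making a transcript and less of it per cell cannot be told apart in bulk RNA. Together the members held 0.260% to 0.310% of the FPKM of a library. The libraries of the groups did not overlap for 29 of the 71 genes (40.8%, background 24.4%), 18 above and 11 below. Of the 25 called genes 24 were among them, but the calls rest on the same values, so this is no separate support. Without pMSC 1 and 2, 13 of 72 tested genes were higher and 6 lower, and 10.99% of all genes were called. Of the main calls, 11 of the 16 higher and 5 of the 9 lower were kept. Leaving out iwatMSC 1 raised the share of all genes called to 21.3%, and leaving out any other single library lowered it.

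**Figure D1:**
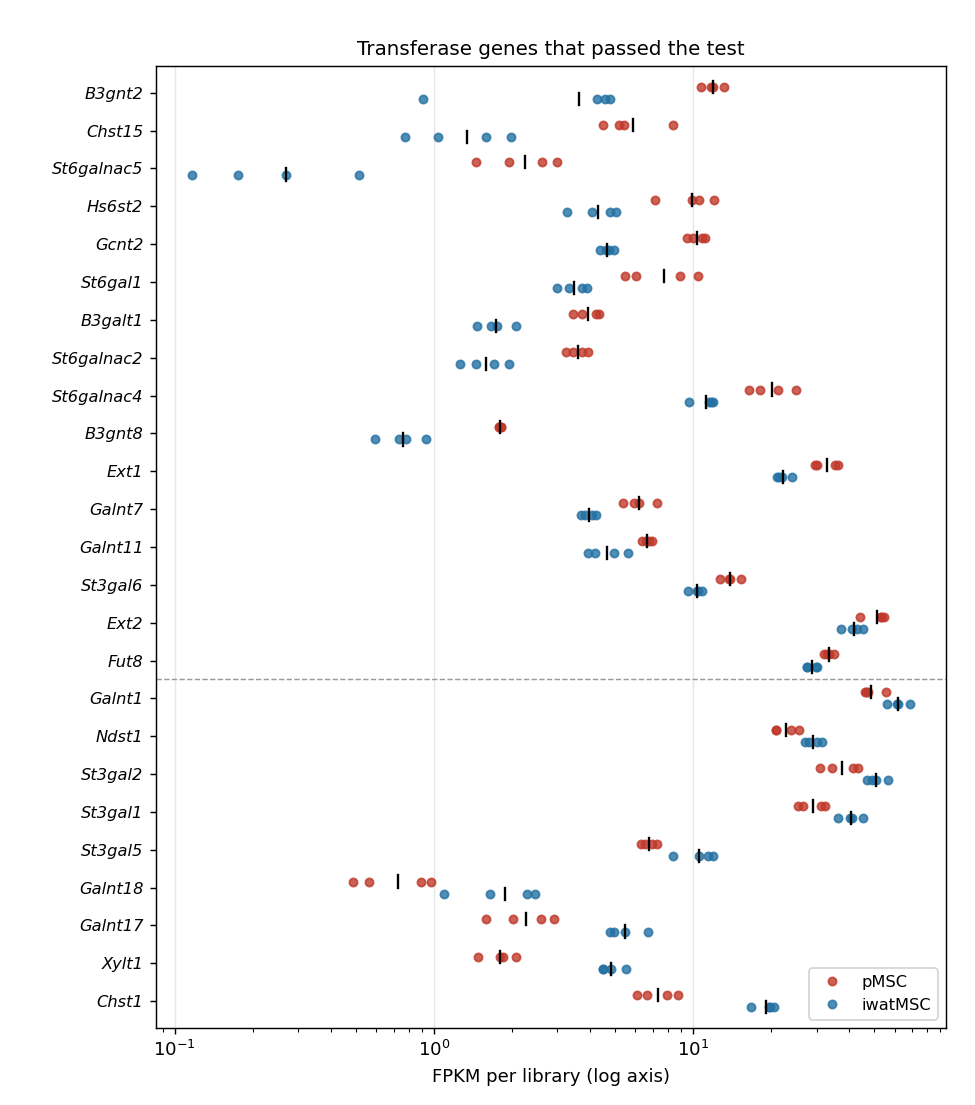
FPKM per library (log axis) of the 25 transferase genes that passed the test, with pMSCs in red, iwatMSCs in blue and a black tick at each group's mean. Genes above the dashed line were higher in pMSCs (16) and those under it lower (9), and St6galnac5 and B3gnt2 show the widest spread among the iwatMSC libraries.

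The linker that carries heparan sulfate and chondroitin sulfate begins with xylose. Xylt1 (chr7:117380979-117673580, plus strand, GRCm38), a xylosyltransferase that starts it, measured 1.48, 1.85, 1.81 and 2.09 FPKM in pMSC libraries, against 4.83, 5.51, 4.5 and 4.48 FPKM in iwatMSC libraries. Every pMSC library was below every iwatMSC library, and the gene was lower in pMSCs (log2 FC -1.06, SE 0.10, adjusted p = 0.000108). Xylt2, the second xylosyltransferase, averaged 7.64 ± 0.375 FPKM (pMSCs) and 7.31 ± 0.589 FPKM (iwatMSCs) (SD, n = 4 each, here and below) and did not pass (log2 FC 0.06, SE 0.08, adjusted p = 0.65). Xylt1 therefore made up 19.1% ± 2.79 of the xylosyltransferase FPKM in pMSCs and 39.8% ± 2.72 in iwatMSCs. B4galt7 and B3galt6, which add the galactoses of the linker, averaged 11.3 ± 1.25 FPKM (pMSCs) and 11.7 ± 0.385 FPKM (iwatMSCs) for B4galt7, and 3.44 ± 0.309 FPKM (pMSCs) and 3.13 ± 0.279 FPKM (iwatMSCs) for B3galt6, and neither passed (adjusted p = 0.698 and 0.47).

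Ext1 and Ext2 form the enzyme pair that polymerizes heparan sulfate, and both were higher in pMSCs. Ext1 measured 36.2, 35.3, 29.99 and 29.6 FPKM in pMSC libraries, against 22.1, 24.2, 21.1 and 21.6 FPKM in iwatMSC libraries, with no overlap (log2 FC 0.54, SE 0.09, adjusted p = 0.00258). Ext2 measured 54.4, 44.3, 53.1 and 53.1 FPKM in pMSC libraries, against 45.3, 37.2, 42.9 and 41.2 FPKM in iwatMSC libraries, where pMSC 2 fell among the iwatMSC libraries (log2 FC 0.29, SE 0.09, adjusted p = 0.0467). The Ext2 call was lost when pMSC 1, 3 or 4 or iwatMSC 2, 3 or 4 was left out, with adjusted p between 0.0864 and 0.118. Extl3 and Extl2, related transferases that act at the start of the chain, averaged 26.8 ± 1.26 FPKM (pMSCs) and 25.5 ± 1.84 FPKM (iwatMSCs) for Extl3, and 17.1 ± 0.790 FPKM (pMSCs) and 14.7 ± 1.23 FPKM (iwatMSCs) for Extl2. They did not pass (adjusted p = 0.532 and 0.0851), and Extl2 passed without iwatMSC 1 (0.0327). Extl1 was at 0.0907 FPKM or less in every library and was not tested. The summed level of these 5 genes was 128 ± 4.24 FPKM in pMSCs and 104 ± 5.22 FPKM in iwatMSCs.

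Heparan sulfate is then N-sulfated, epimerized and sulfated at the 2-O, 6-O and 3-O positions. Hs6st2, a 6-O-sulfotransferase (chrX:51387212-51681856, minus strand), measured 12.1, 10.6, 9.95 and 7.14 FPKM in pMSC libraries, against 4.09, 3.28, 4.79 and 5.03 FPKM in iwatMSC libraries. All pMSC libraries were above all iwatMSC libraries (log2 FC 1.04, SE 0.16, adjusted p = 0.00213). Hs6st1, the more abundant 6-O-sulfotransferase, measured 22.8, 24.9, 31.5 and 30.3 FPKM in pMSC libraries, against 24.5, 22.8, 23.2 and 21.96 FPKM in iwatMSC libraries, and the groups overlapped (log2 FC 0.22, SE 0.10, adjusted p = 0.173). Hs6st2 made up 26.9% ± 6.78 of the FPKM of this pair in pMSCs and 15.7% ± 2.74 in iwatMSCs. Its share was 34.7% and 29.8% in pMSC 1 and 2 and 24.0% and 19.1% in pMSC 3 and 4, so the lowest pMSC share lay close to the highest iwatMSC share of 18.7%. Without pMSC 1 and 2 the call of Hs6st2 was kept (0.0315) and Hs6st1 passed as higher (adjusted p = 0.0223).

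Ndst1, an N-deacetylase and N-sulfotransferase that makes the first sulfation, measured 20.9, 20.9, 23.9 and 25.6 FPKM in pMSC libraries, against 27.1, 31.4, 28.0 and 30.2 FPKM in iwatMSC libraries, and the groups did not overlap (log2 FC -0.34, SE 0.09, adjusted p = 0.0224). This value rests on 1 of 6 annotated transcripts, and the others were not analysed here. The call was lost without pMSC 1, pMSC 2, iwatMSC 2 or iwatMSC 4, with adjusted p between 0.0568 and 0.0635, and without pMSC 1 and 2 together (0.161). Ndst2, the relative known from mast cells, averaged 11.8 ± 1.351 FPKM (pMSCs) and 9.81 ± 2.13 FPKM (iwatMSCs) and did not pass (adjusted p = 0.229), but passed as higher without iwatMSC 1 (0.0342). Hs2st1, the single 2-O-sulfotransferase, averaged 16.0 ± 0.319 FPKM (pMSCs) and 15.1 ± 0.583 FPKM (iwatMSCs) (adjusted p = 0.393). Of the 3-O-sulfotransferases only Hs3st1 was tested, at 2.52 ± 0.577 FPKM (pMSCs) and 3.54 ± 1.49 FPKM (iwatMSCs) (adjusted p = 0.378). Hs3st3b1, under the filter, measured 0.0767, 0.129, 0.0891 and 0.0900 FPKM in pMSC libraries, against 0.394, 0.480, 0.375 and 0.517 FPKM in iwatMSC libraries, without overlap, and the other 3-O-sulfotransferases, Hs6st3, Ndst3 and Ndst4 were under 1 FPKM in every library.

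Among chondroitin and dermatan sulfotransferases, Chst15 had the largest difference. It adds the second sulfate that makes the disulfated E unit of chondroitin sulfate. The gene (chr7:132235780-132317228, minus strand) measured 5.18, 4.49, 8.40 and 5.42 FPKM in pMSC libraries, against 1.99, 0.773, 1.58 and 1.04 FPKM in iwatMSC libraries. All pMSC libraries were above all iwatMSC libraries (log2 FC 1.55, SE 0.21, adjusted p = 0.000847). By transcript, ENSMUST00000080215 measured 4.95, 3.59, 6.98 and 4.58 FPKM in pMSC libraries, against 0, 0.128, 0.00640 and 0.0806 FPKM in iwatMSC libraries. ENSMUST00000077472, whose start lies 514 bases downstream, measured 0, 0.900, 1.27 and 0.792 FPKM in pMSC libraries, against 1.99, 0.645, 1.23 and 0.957 FPKM in iwatMSC libraries and was not tested, since its mean was under 1 FPKM. ENSMUST00000080215 thus held 85.8% ± 6.79 of the gene's FPKM in pMSCs and 6.19% ± 7.80 in iwatMSCs, and it was higher in pMSCs (log2 FC 2.49 ± 0.18, SE, adjusted p = 0.000271 over 24686 transcripts). How StringTie divided reads between these overlapping transcripts was not tested. The promoter of ENSMUST00000080215 is shown because the share of the transcript that starts there differed between the groups. It runs from 250 bases before to 50 after the RefSeq start (chr7:132317179-132317478, minus strand, GRCm38.p6), and capitals mark the GC box GGGCGG:
Chst15 promoter: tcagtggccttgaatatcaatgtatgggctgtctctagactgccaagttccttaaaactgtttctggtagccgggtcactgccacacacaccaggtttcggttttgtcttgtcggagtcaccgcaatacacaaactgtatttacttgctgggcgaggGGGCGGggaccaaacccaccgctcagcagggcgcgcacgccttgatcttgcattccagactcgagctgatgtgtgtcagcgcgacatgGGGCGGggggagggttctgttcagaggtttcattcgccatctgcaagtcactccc

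Of 4 motifs searched on both strands (the GC box GGGCGG, the sequence CCAAT, the TATA element TATAAA and the AP-1 motif TGANTCA), this window held 2 GC boxes and no other. The 3 most abundant genes of the group did not pass. Chst11 and Chst12, which put sulfate at the 4-O position of chondroitin, averaged 46.3 ± 3.31 FPKM (pMSCs) and 47.3 ± 8.03 FPKM (iwatMSCs) for Chst11, and 31.6 ± 1.25 FPKM (pMSCs) and 29.7 ± 2.18 FPKM (iwatMSCs) for Chst12 (adjusted p = 0.926 and 0.409). Chst14, the dermatan 4-O-sulfotransferase, averaged 17.6 ± 0.401 FPKM (pMSCs) and 18.5 ± 1.22 FPKM (iwatMSCs) (adjusted p = 0.555). Chst7, a chondroitin 6-O-sulfotransferase, measured 1.42, 1.55, 0.836 and 1.20 FPKM in pMSC libraries, against 2.18, 1.92, 1.63 and 2.33 FPKM in iwatMSC libraries, without overlap, and narrowly missed the threshold (log2 FC -0.42, SE 0.13, adjusted p = 0.0501). It passed as lower without pMSC 2 (adjusted p = 0.0484). Chst13, another chondroitin 4-O-sulfotransferase, was under the filter, at 0, 0.0384, 0 and 0 FPKM in pMSC libraries, against 0.771, 0.671, 3.12 and 1.88 FPKM in iwatMSC libraries.

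Of the sulfotransferases that act on other sugars, Chst1 was the tested transferase gene with the largest negative log2 fold change on log2(FPKM + 1). As a ratio of group means, pMSC over iwatMSC, it stood at 0.384, with Xylt1 at 0.374. Chst1 sulfates galactose in keratan sulfate (chr2:92599707-92615250, plus strand). Its levels were 6.08, 6.66, 7.92 and 8.77 FPKM in pMSC libraries, against 19.8, 16.7, 19.6 and 20.5 FPKM in iwatMSC libraries. The highest pMSC library, at 8.77 FPKM, was well below the lowest iwatMSC library, at 16.7 FPKM (log2 FC -1.28, SE 0.11, adjusted p = 7.43e-05). Chst2, which sulfates N-acetylglucosamine, averaged 9.98 ± 0.455 FPKM (pMSCs) and 8.47 ± 0.740 FPKM (iwatMSCs) without overlap and did not pass (adjusted p = 0.088). Chst10, which makes the HNK-1 epitope, averaged 1.12 ± 0.190 FPKM (pMSCs) and 0.917 ± 0.205 FPKM (iwatMSCs) (adjusted p = 0.422). Chst8, which sulfates the glycans of pituitary hormones, was under the filter and measured 0.807, 1.24, 0.632 and 1.04 FPKM in pMSC libraries, against 0.200, 0.329, 0.542 and 0.508 FPKM in iwatMSC libraries, without overlap, while Chst5 stayed at 0.230 FPKM or less and Chst4 and Chst9 were listed at 0.

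None of the 3 hyaluronan synthases passed, but Has2 missed narrowly. Has2, the main synthase of mesenchymal cells, measured 29.0, 26.5, 15.9 and 15.0 FPKM in pMSC libraries, against 16.2, 12.5, 6.56 and 6.57 FPKM in iwatMSC libraries. The lowest pMSC libraries (3 and 4) overlapped the highest iwatMSC library (log2 FC 1.02, SE 0.31, adjusted p = 0.0511). It passed in 4 of 19 alternative settings and not in the others. Those 4 were the fit without iwatMSC 1 (log2 FC 1.24, adjusted p = 0.0178), array weights (0.00622), median-of-ratios scaling (0.0483) and TPM (0.0453). The antisense gene Has2os overlaps its exons on the other strand, and the counting used default options, which set no library strand, so reads from the overlap cannot be told apart.

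Has3 measured 14.3, 14.6, 17.9 and 17.0 FPKM in pMSC libraries, against 16.5, 21.4, 21.5 and 18.8 FPKM in iwatMSC libraries (log2 FC -0.28, SE 0.11, adjusted p = 0.108), and Has1 measured 7.08, 7.07, 2.11 and 3.77 FPKM in pMSC libraries, against 5.87, 10.4, 6.39 and 7.45 FPKM in iwatMSC libraries (log2 FC -0.59, SE 0.31, adjusted p = 0.224). Both overlapped between the groups. Has3 passed as lower without iwatMSC 1 (adjusted p = 0.0386) and Has1 without pMSC 1 and 2 (0.0347). Has2 made up 49.7% ± 7.75 of the synthase FPKM in pMSCs and 27.3% ± 10.6 in iwatMSCs. The shares overlapped, with pMSC 4 at 41.9% and iwatMSC 1 at 42.0%. Within pMSCs, libraries 1 and 2, which held the most acinar enzyme FPKM, had the higher Has2 and Has1 levels and the lower Has3 levels. Has2 was also higher in iwatMSC 1 and 2 (16.2 and 12.5 FPKM) than in iwatMSC 3 and 4 (6.56 and 6.57 FPKM). Acinar sums were 3.71, 2.69, 2.27 and 1.81 FPKM in iwatMSC 1 to 4. Has1 and Has3 did not divide the iwatMSC libraries in that way. The cause of these splits was not tested. Has3 exons overlap Chtf8 on the other strand.

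**Figure D2:**
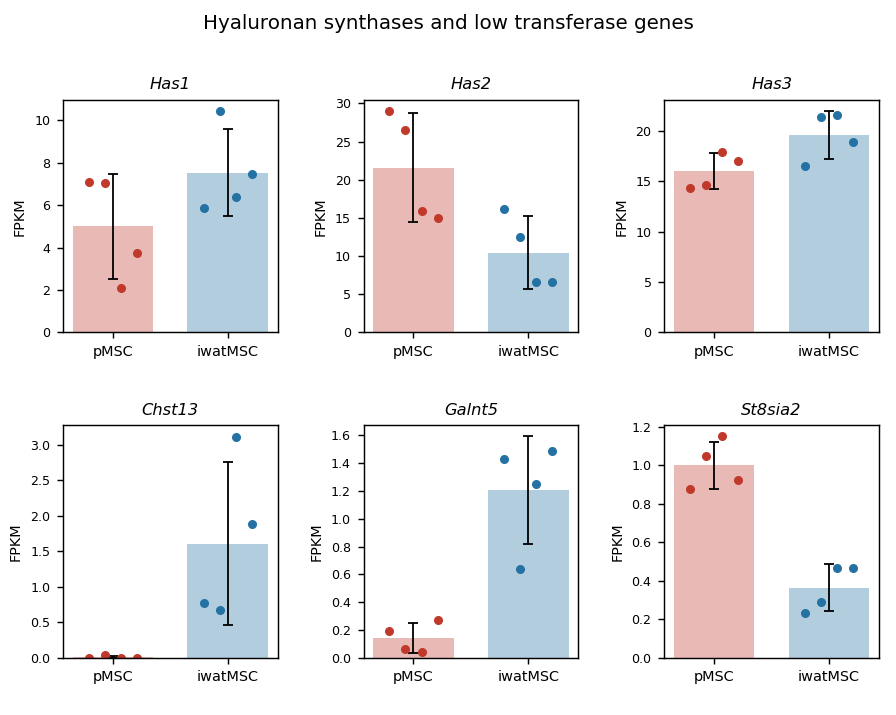
FPKM of the hyaluronan synthases Has1, Has2 and Has3 and of 3 transferase genes under the filter (Chst13, Galnt5, St8sia2). Points are libraries, bars group means and error bars SD (n = 4 each). Has2 averaged 21.6 FPKM in pMSCs and 10.5 FPKM in iwatMSCs with overlapping libraries, while the 3 low genes did not overlap.

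None of the 5 tested N-glycan branching genes passed (background 19.4% of all tested genes called). Mgat1 and Mgat2 add the first N-acetylglucosamines of complex N-glycans. Mgat2 measured 65.5, 62.1, 62.6 and 59.8 FPKM in pMSC libraries, against 56.8, 54.1, 55.7 and 54.6 FPKM in iwatMSC libraries, without overlap, and missed the threshold (log2 FC 0.17, SE 0.05, adjusted p = 0.0556). It passed in 6 of 19 alternatives, among them values rescaled to TPM (adjusted p = 0.024) and no filter (0.0395). The other passing ones were median-of-ratios scaling, quantile normalization, array weights and the unequal-variance test on log2 values. Mgat1 averaged 5.98 ± 0.794 FPKM (pMSCs) and 5.94 ± 0.883 FPKM (iwatMSCs) and Mgat4b, which starts a further branch, 45.4 ± 3.96 FPKM (pMSCs) and 48.1 ± 5.45 FPKM (iwatMSCs) (adjusted p = 0.966 and 0.615). Mgat3, which adds the bisecting residue, and Mgat5, which makes the branch extended by polylactosamine, averaged 3.97 ± 1.69 FPKM (pMSCs) and 3.02 ± 0.443 FPKM (iwatMSCs) for Mgat3, and 3.91 ± 0.419 FPKM (pMSCs) and 4.54 ± 0.528 FPKM (iwatMSCs) for Mgat5 (adjusted p = 0.479 and 0.278). Mgat4a, under the filter, measured 1.21, 1.22, 0.961 and 1.09 FPKM in pMSC libraries, against 0.279, 0.533, 0.456 and 0.615 FPKM in iwatMSC libraries, without overlap. The remaining 4 members of this group (Mgat4c, Mgat4d, Mgat4e, Mgat5b) were at 0.108 FPKM or less.

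Core fucose is added to N-glycans by Fut8. It measured 32.0, 33.5, 35.1 and 33 FPKM in pMSC libraries, against 27.6, 29.8, 30.02 and 27.5 FPKM in iwatMSC libraries, with every pMSC library above every iwatMSC library, but by a small amount (log2 FC 0.21, SE 0.06, adjusted p = 0.0427). The call was lost when any single library was left out (adjusted p between 0.0548 and 0.11). Fut11 and Fut10, divergent members of the family, averaged 10.2 ± 0.600 FPKM (pMSCs) and 8.77 ± 1.47 FPKM (iwatMSCs) for Fut11, and 7.46 ± 0.468 FPKM (pMSCs) and 7.29 ± 0.897 FPKM (iwatMSCs) for Fut10 (adjusted p = 0.212 and 0.843), and Fut11 passed as higher without iwatMSC 1 (0.0207). The Lewis antigen fucosyltransferase Fut4 averaged 0.880 ± 0.131 FPKM (pMSCs) and 0.993 ± 0.165 FPKM (iwatMSCs) and was not tested, Fut2 was at 0.127 FPKM or less, and Fut1, Fut7 and Fut9 were listed at 0.

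The galactosyltransferases held the most abundant member of all. B4galt5, which makes lactosylceramide, the start of most glycolipids, measured 139, 153, 187 and 208 FPKM in pMSC libraries, against 164, 157, 129 and 134 FPKM in iwatMSC libraries. The groups overlapped (log2 FC 0.22, SE 0.14, adjusted p = 0.291). B4galt1, the main N-glycan galactosyltransferase, measured 80.2, 73.6, 82.1 and 76.9 FPKM in pMSC libraries, against 77.4, 59.3, 55.8 and 53.5 FPKM in iwatMSC libraries, with 1 iwatMSC library at the pMSC level (log2 FC 0.36, SE 0.11, adjusted p = 0.053). Without that library, iwatMSC 1, it passed (log2 FC 0.47, adjusted p = 0.00181).

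The one called gene of this group was B3galt1, which makes type 1 chains. It measured 3.75, 4.34, 4.25 and 3.46 FPKM in pMSC libraries, against 1.67, 1.47, 1.75 and 2.09 FPKM in iwatMSC libraries. No library of the groups overlapped, and the call held in every alternative that could test it (log2 FC 0.85, SE 0.10, adjusted p = 0.000505). B3galnt1, the globoside synthase, averaged 25.4 ± 1.97 FPKM (pMSCs) and 25.9 ± 2.06 FPKM (iwatMSCs) (adjusted p = 0.872). The other 6 tested genes (B3galnt2, B4galnt1, B4galt2, B4galt3, B4galt4, B4galt6) averaged between 2.31 and 18.3 FPKM in either group, and none passed. The 6 untested genes averaged under 1 FPKM in both groups.

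The enzymes that extend or branch chains with N-acetylglucosamine had a summed level of 40.4 ± 2.11 FPKM in pMSCs and 25.7 ± 2.62 FPKM in iwatMSCs. Of 7 tested genes 3 were higher and none lower, beside a background of 9.02% higher and 10.4% lower over all tested genes. B3gnt2, the main polylactosamine synthase (chr11:22759738-22860961, minus strand), had the largest log2 fold change of all tested members on log2(FPKM + 1). Its ratio of group means, pMSC over iwatMSC, was 3.28, under those of St6galnac5 (8.34) and Chst15 (4.36). B3gnt2 measured 13.1, 11.8, 10.8 and 11.9 FPKM in pMSC libraries, against 4.28, 4.77, 0.906 and 4.58 FPKM in iwatMSC libraries. All pMSC libraries were above all iwatMSC libraries, and iwatMSC 3 stood far under the other iwatMSC libraries (log2 FC 1.60, SE 0.32, adjusted p = 0.00814). Without iwatMSC 3 the log2 fold change was 1.22 (adjusted p = 9.28e-05), and without pMSC 1 and 2 the call was lost (1.54, adjusted p = 0.0741). The low value of iwatMSC 3 lay in ENSMUST00000062844, which measured 8.94, 7.58, 6.95 and 8.90 FPKM in pMSC libraries, against 2.73, 3.43, 0.0331 and 3.70 FPKM in iwatMSC libraries.

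Gcnt2, the enzyme that branches polylactosamine into the I antigen (chr13:40859754-40960892, plus strand), had the smallest adjusted p of all members. Its levels were 11.1, 9.997, 9.47 and 10.8 FPKM in pMSC libraries, against 4.97, 4.74, 4.62 and 4.39 FPKM in iwatMSC libraries. The groups were far apart beside their spread, and the call held in all 19 alternatives (log2 FC 1.0, SE 0.08, adjusted p = 3.23e-05). A pair of transcripts whose starts lie 57847 bases apart made up most of it, and they begin with different first exons. ENSMUST00000110191 measured 5.40, 4.54, 5.07 and 4.81 FPKM in pMSC libraries, against 2.61, 2.36, 2.36 and 1.92 FPKM in iwatMSC libraries (log2 FC 0.85, adjusted p = 0.00327). ENSMUST00000067778 measured 4.69, 4.26, 3.43 and 4.92 FPKM in pMSC libraries, against 1.82, 1.77, 1.80 and 1.48 FPKM in iwatMSC libraries (log2 FC 0.96, adjusted p = 0.00385). Both were higher in pMSCs, and without pMSC 1 and 2 both calls were lost (adjusted p = 0.0514 and 0.0718). The share of ENSMUST00000110191 was 48.0% ± 4.07 in pMSCs and 49.3% ± 3.80 in iwatMSCs. Because both starts moved, both promoters are shown (RefSeq, GRCm38.p6, plus strand, chr13:40859518-40859817 for ENSMUST00000110191 and chr13:40917384-40917683 for ENSMUST00000067778), with a GC box in capitals:
Gcnt2 upstream promoter: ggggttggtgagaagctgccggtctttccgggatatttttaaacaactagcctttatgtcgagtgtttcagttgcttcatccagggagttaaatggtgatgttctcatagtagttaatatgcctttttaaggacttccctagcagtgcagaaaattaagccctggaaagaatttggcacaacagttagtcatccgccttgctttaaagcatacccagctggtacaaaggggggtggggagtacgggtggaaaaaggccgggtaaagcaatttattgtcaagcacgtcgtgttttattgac
Gcnt2 downstream promoter: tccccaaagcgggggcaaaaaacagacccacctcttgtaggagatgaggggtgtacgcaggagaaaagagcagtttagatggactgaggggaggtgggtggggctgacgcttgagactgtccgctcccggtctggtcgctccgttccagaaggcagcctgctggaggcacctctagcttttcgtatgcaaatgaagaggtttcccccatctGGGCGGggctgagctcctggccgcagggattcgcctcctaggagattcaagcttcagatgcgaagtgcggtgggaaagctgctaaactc

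The ENSMUST00000110191 window held none of the 4 motifs and the ENSMUST00000067778 window 1 GC box. Exons of Gcnt2 overlap A730081D07Rik and Gm31683 on the other strand. B3gnt8, which extends polylactosamine on branched N-glycans, measured 1.78, 1.79, 1.83 and 1.81 FPKM in pMSC libraries, against 0.780, 0.593, 0.735 and 0.937 FPKM in iwatMSC libraries, without overlap (log2 FC 0.67, SE 0.09, adjusted p = 0.00111). Most of this came from a retained-intron transcript (ENSMUST00000206824, 0.919 ± 0.196 FPKM (pMSCs) and 0.118 ± 0.0666 FPKM (iwatMSCs)) and from one subject to nonsense-mediated decay (ENSMUST00000206940, 0.753 ± 0.0414 FPKM (pMSCs) and 0.622 ± 0.158 FPKM (iwatMSCs)), and Bckdha overlaps it on the other strand. B3gnt9, B3gntl1, B3gnt3 and Gcnt4 did not pass (adjusted p between 0.0628 and 0.704), and B3gnt3 passed as lower without iwatMSC 2 (0.0199). The 7 untested genes of the group, the mucin core 2 enzyme Gcnt1 among them, averaged under 1 FPKM in both groups.

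**Figure D3:**
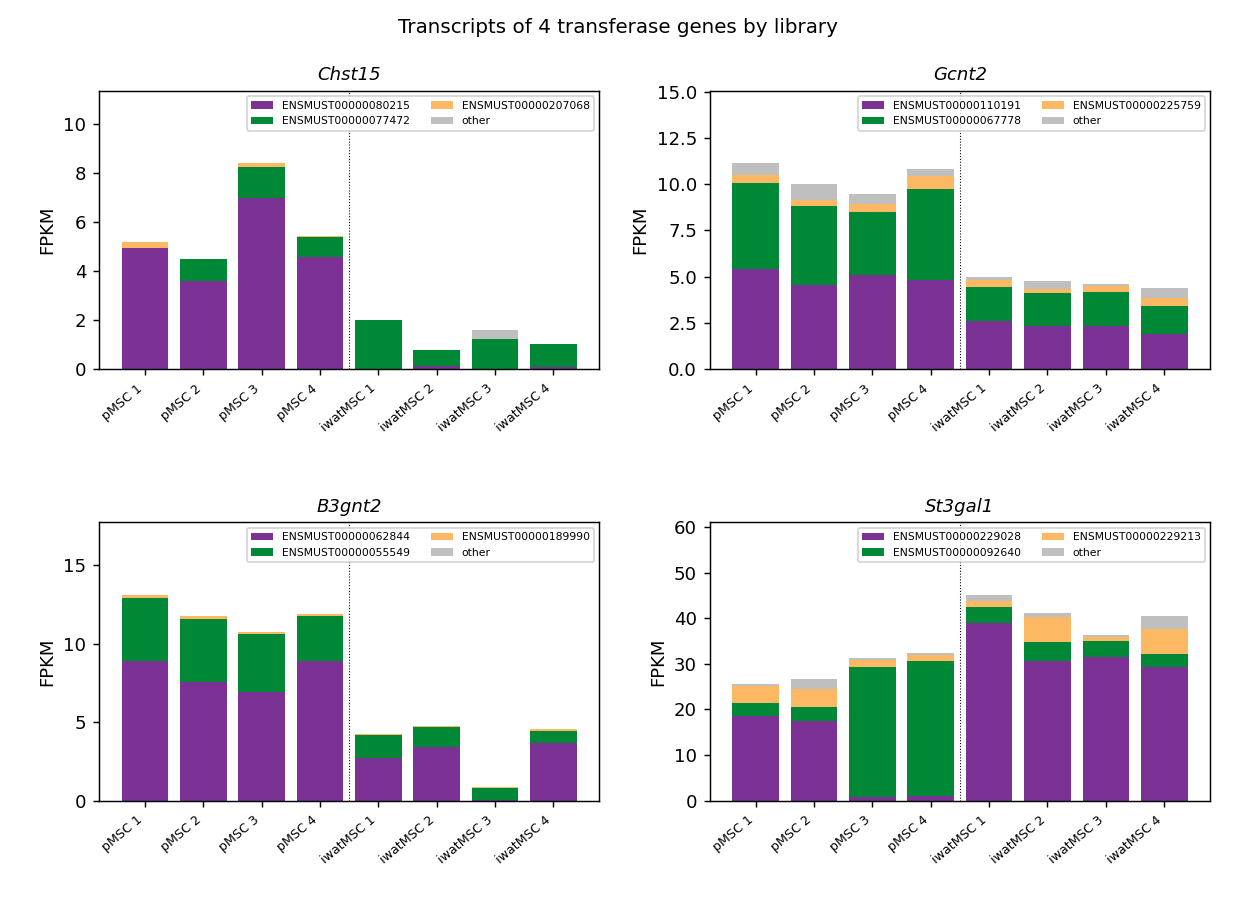
FPKM by transcript of Chst15, Gcnt2, B3gnt2 and St3gal1 in each library, stacked, with pMSCs left and iwatMSCs right of the dotted line. ENSMUST00000080215 (purple, Chst15 panel) was at 3.59 FPKM or more in pMSCs and at 0.128 FPKM or less in iwatMSCs, and ENSMUST00000092640 (green, St3gal1 panel) held about 91% of St3gal1 in pMSC 3 and 4 and about 11% in pMSC 1 and 2.

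Polypeptide GalNAc transferases start mucin-type O-glycans. Of 10 tested, 5 passed, 2 higher and 3 lower (background 19.4% of all tested genes called). Galnt7, which prefers peptides that already carry GalNAc, measured 7.25, 6.19, 5.38 and 5.94 FPKM in pMSC libraries, against 3.84, 4.07, 3.71 and 4.22 FPKM in iwatMSC libraries (log2 FC 0.53, SE 0.09, adjusted p = 0.00429). Galnt11, known to glycosylate lipoprotein receptors, measured 6.96, 6.56, 6.76 and 6.37 FPKM in pMSC libraries, against 5.62, 4.97, 4.19 and 3.95 FPKM in iwatMSC libraries (log2 FC 0.44, SE 0.10, adjusted p = 0.0162). Neither gene's groups overlapped. Galnt11, whose exons overlap E130116L18Rik on the other strand, lost its call without iwatMSC 3 (adjusted p = 0.0518) and without pMSC 1 and 2 (0.105).

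Lower in pMSCs were Galnt17, Galnt18 and Galnt1. Galnt17, a member expressed mainly in brain (chr5:130872082-131308497, minus strand), measured 2.91, 2.59, 2.03 and 1.59 FPKM in pMSC libraries, against 6.70, 4.96, 5.49 and 4.78 FPKM in iwatMSC libraries (log2 FC -0.99, SE 0.15, adjusted p = 0.00168). Galnt18 measured 0.891, 0.976, 0.562 and 0.488 FPKM in pMSC libraries, against 1.10, 1.65, 2.47 and 2.29 FPKM in iwatMSC libraries (log2 FC -0.72, SE 0.18, adjusted p = 0.0213). Galnt1, one of the broadly expressed initiators, measured 55.8, 47.2, 46.4 and 46.0 FPKM in pMSC libraries, against 61.9, 68.7, 56.3 and 61.3 FPKM in iwatMSC libraries (log2 FC -0.34, SE 0.09, adjusted p = 0.0232). The groups did not overlap for any of the 3, and in Galnt1 pMSC 1 stood apart, just below the lowest iwatMSC library. Galnt1 lost its call without pMSC 2, 3 or 4 or iwatMSC 2 or 4 (adjusted p between 0.0539 and 0.0613). Galnt18 lost it without pMSC 3 or 4 or iwatMSC 3 or 4 (adjusted p between 0.0549 and 0.0609).

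Galnt2, the most abundant initiator, averaged 72.3 ± 3.31 FPKM (pMSCs) and 61.1 ± 11.01 FPKM (iwatMSCs) and did not pass (adjusted p = 0.155), but passed as higher without iwatMSC 1 (0.00806). Galnt10 averaged 20.1 ± 2.02 FPKM (pMSCs) and 23.7 ± 3.66 FPKM (iwatMSCs) (adjusted p = 0.211). Galnt4 averaged 6.81 ± 0.0450 FPKM (pMSCs) and 5.66 ± 0.457 FPKM (iwatMSCs) without overlap (adjusted p = 0.0602), passed without iwatMSC 1 (0.0449), and shares exons with Poc1b on the same strand. Under the filter, Galnt5 measured 0.193, 0.0601, 0.0444 and 0.270 FPKM in pMSC libraries, against 1.43, 0.642, 1.25 and 1.49 FPKM in iwatMSC libraries, and Galnt13 measured 0, 0.0166, 0.0166 and 0.00830 FPKM in pMSC libraries, against 1.04, 0.225, 0.580 and 0.751 FPKM in iwatMSC libraries. In both, no pMSC library reached the lowest iwatMSC library, nor did one for Galnt15, at 0.0823 ± 0.0521 FPKM (pMSCs) and 0.209 ± 0.0454 FPKM (iwatMSCs). The other 6 untested members averaged under 0.2 FPKM in both groups.

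Sialyltransferases cap chains with sialic acid. Of 11 tested, 8 passed, 5 higher and 3 lower, beside a background of 19.4% of all tested genes called. All 4 called genes of the St6gal and St6galnac families were higher in pMSCs, as was St3gal6, and the 3 lower genes were all of the St3gal family. St6gal1, the main enzyme of its family on N-glycans (chr16:23224740-23360350, plus strand), measured 5.48, 6.05, 10.5 and 8.91 FPKM in pMSC libraries, against 2.995, 3.32, 3.73 and 3.90 FPKM in iwatMSC libraries, with pMSC 3 and 4 the highest (log2 FC 0.92, SE 0.18, adjusted p = 0.00682). St6galnac5, which makes the ganglioside GD1α (chr3:152817081-152982246, minus strand), measured 1.95, 1.46, 2.98 and 2.61 FPKM in pMSC libraries, against 0.517, 0.176, 0.117 and 0.269 FPKM in iwatMSC libraries. The groups did not overlap (log2 FC 1.34, SE 0.17, adjusted p = 0.000656), and Pigk overlaps it on the other strand.

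St6galnac4, which sialylates the GalNAc of sialylated core 1 glycans, measured 25.0, 18.1, 16.4 and 21.2 FPKM in pMSC libraries, against 9.66, 11.8, 11.98 and 11.5 FPKM in iwatMSC libraries, without overlap (log2 FC 0.78, SE 0.13, adjusted p = 0.00278). Its called transcript, ENSMUST00000123080, a retained-intron form, lost its call without any 1 of the pMSC libraries or iwatMSC 2, 3 or 4, and held about 21.2% of the gene's FPKM in pMSCs and 18.7% in iwatMSCs. St6galnac2, which acts on core 1 O-glycans, measured 3.95, 3.23, 3.46 and 3.72 FPKM in pMSC libraries, against 1.46, 1.27, 1.95 and 1.71 FPKM in iwatMSC libraries (log2 FC 0.83, SE 0.11, adjusted p = 0.000716). The libraries of the groups did not overlap, although its exons are shared with its second identifier (untested, 0.408 ± 0.0893 FPKM (pMSCs) and 0.268 ± 0.0841 FPKM (iwatMSCs)) and with 1810032O08Rik on the other strand. St3gal6, which caps lactosamine chains, measured 13.9, 13.7, 15.4 and 12.8 FPKM in pMSC libraries, against 10.5, 10.9, 10.3 and 9.61 FPKM in iwatMSC libraries (log2 FC 0.40, SE 0.08, adjusted p = 0.00603). St3gal6 lost its call without pMSC 1 and 2 (adjusted p = 0.0506), and Dcbld2 overlaps it on the other strand.

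The lower sialyltransferases were St3gal5, St3gal1 and St3gal2, all without overlap. St3gal5, the GM3 synthase that opens ganglioside synthesis, measured 6.28, 6.98, 6.53 and 7.25 FPKM in pMSC libraries, against 8.36, 11.4, 11.98 and 10.6 FPKM in iwatMSC libraries (log2 FC -0.57, SE 0.11, adjusted p = 0.0063). St3gal1, which caps core 1 O-glycans, measured 25.5, 26.7, 31.2 and 32.3 FPKM in pMSC libraries, against 45.2, 41.1, 36.3 and 40.5 FPKM in iwatMSC libraries (log2 FC -0.48, SE 0.10, adjusted p = 0.00805). St3gal2, which sialylates gangliosides, measured 41.5, 31.1, 34.4 and 43.3 FPKM in pMSC libraries, against 56.6, 47.1, 48.9 and 50.9 FPKM in iwatMSC libraries (log2 FC -0.44, SE 0.11, adjusted p = 0.0244). Without pMSC 1 and 2 all 3 calls were lost (adjusted p = 0.0599, 0.0696 and 0.0853). That of St3gal2 was also lost without pMSC 2 or 3 or iwatMSC 3 or 4 (adjusted p between 0.0517 and 0.0635). The promoter of St3gal5 is shown as that of a lower gene (RefSeq, GRCm38.p6, chr6:72097358-72097657, plus strand), and capitals mark 2 GC boxes and 2 CCAAT boxes on either strand:
St3gal5 promoter: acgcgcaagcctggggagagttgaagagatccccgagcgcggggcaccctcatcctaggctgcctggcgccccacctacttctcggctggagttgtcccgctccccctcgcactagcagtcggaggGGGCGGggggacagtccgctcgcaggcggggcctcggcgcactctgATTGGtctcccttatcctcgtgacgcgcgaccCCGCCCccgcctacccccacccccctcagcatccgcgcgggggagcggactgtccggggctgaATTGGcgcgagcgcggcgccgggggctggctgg

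Within pMSCs, St3gal1 transcripts separated the libraries. ENSMUST00000092640 measured 2.87, 2.998, 28.4 and 29.6 FPKM in pMSC libraries, against 3.67, 4.04, 3.44 and 2.85 FPKM in iwatMSC libraries, and ENSMUST00000229028, which starts 62838 bases upstream, measured 18.6, 17.5, 0.895 and 0.946 FPKM in pMSC libraries, against 38.8, 30.7, 31.6 and 29.3 FPKM in iwatMSC libraries. The share of ENSMUST00000092640 was 11.2% in pMSC 1 and 2, 90.9% and 91.5% in pMSC 3 and 4, and 7.05% to 9.83% in iwatMSCs. This split fell between the pMSC libraries with more and with less acinar enzyme FPKM, and neither transcript passed (adjusted p = 0.422 and 0.163). A B4galt2 transcript split the libraries of both organs. ENSMUST00000106421 measured 17.4, 15.9, 0.0535 and 0.1445 FPKM in pMSC libraries, against 15.1, 0.156, 16.0 and 16.6 FPKM in iwatMSC libraries. The cause of such splits, and how StringTie divided reads between the transcripts, was not tested. St6galnac6, St3gal4 and St3gal3 averaged 31.3 ± 2.85 FPKM (pMSCs) and 27.6 ± 5.07 FPKM (iwatMSCs) for St6galnac6, 17.9 ± 2.38 FPKM (pMSCs) and 21.8 ± 2.48 FPKM (iwatMSCs) for St3gal4, and 11.2 ± 1.38 FPKM (pMSCs) and 9.09 ± 0.344 FPKM (iwatMSCs) for St3gal3 and did not pass (adjusted p = 0.355, 0.131 and 0.0724). St3gal3 passed as higher without pMSC 4 (0.0243). Of the polysialic acid and ganglioside enzymes of the St8sia family none reached the filter, and St8sia2 measured 0.875, 1.05, 1.15 and 0.920 FPKM in pMSC libraries, against 0.232, 0.289, 0.467 and 0.466 FPKM in iwatMSC libraries, without overlap, while the other 5 averaged under 0.1 FPKM in both groups. St6galnac3 stayed at 0.0707 FPKM or less.

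**Figure D4:**
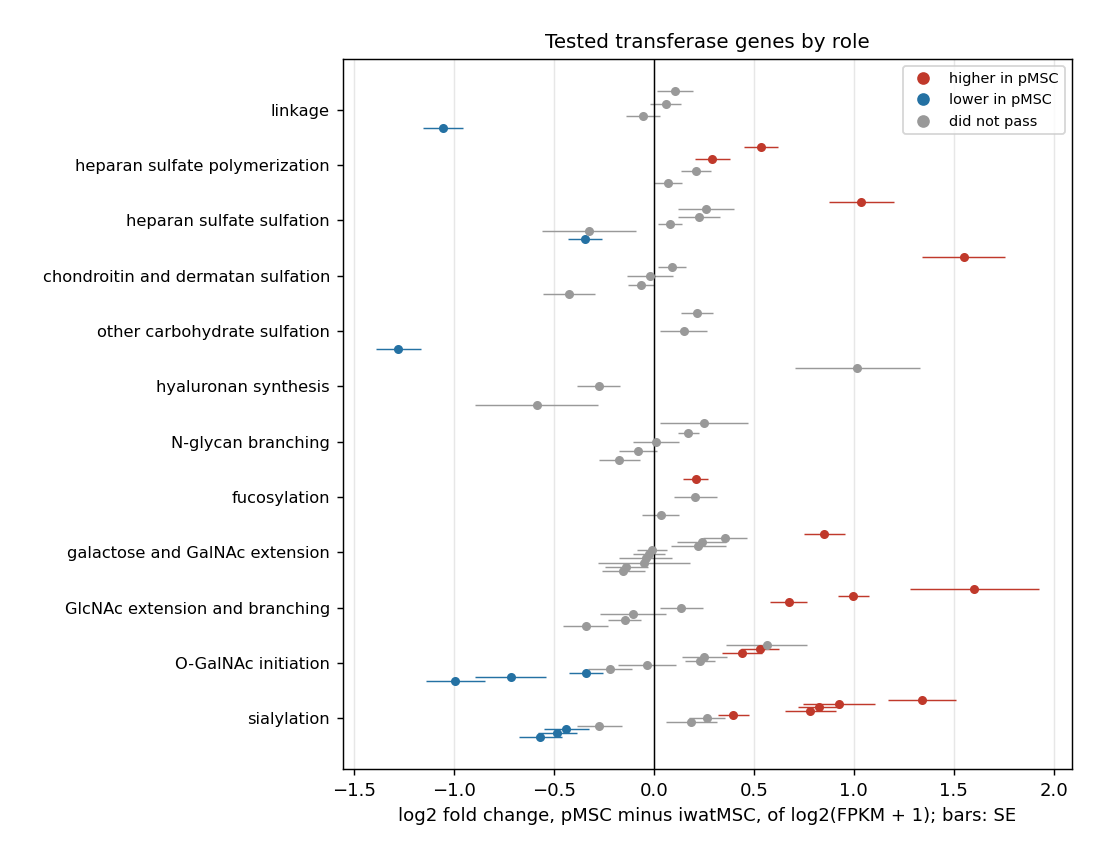
Log2 fold change (pMSC minus iwatMSC, on log2(FPKM + 1)) of the 71 tested transferase genes by role, with bars for the SE. Red points were higher (16), blue points lower (9) and grey points did not pass (46). Called genes ran between -1.28 (Chst1) and 1.60 (B3gnt2), with none in hyaluronan synthesis or N-glycan branching.

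By transcript, 505 were in the table for these genes and 117 reached the filter. Of these, 9 were higher in pMSCs (background 2.79% of 24686 transcripts) and 3 lower (background 2.75%), from 11 genes, beside 5.54% called in either direction. The higher ones were both Gcnt2 transcripts above, the Chst15 and St6galnac4 transcripts named above, and 1 transcript each of B3gnt2 (ENSMUST00000055549), Ext1, St3gal6, St6galnac2 and St6galnac5, and the lower ones 1 each of Chst1, Galnt17 and Xylt1. No gene had called transcripts in opposite directions. Without pMSC 1 and 2, 7 of the 12 calls were lost.

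Of the 58 untested genes, 12 were listed at 0 in every library (Chst4, Chst9, Fut1, Fut7, Fut9, Galntl5, Hs3st2, Mgat4d, Ndst4, St6gal2, St6galnac1 and St8sia5) and 46 were above 0 somewhere. Chst13, Galnt5 and Mgat4a averaged 1 FPKM or more in 1 group. Fitted without the filter over 29105 genes, 117 members could be tested, 18 were higher and 13 lower, beside 9.59% of all genes called. Galnt14, Gcnt1, Hs3st6, Ndst1, St8sia3 and St8sia5 rest on part of their annotated transcripts.

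RefSeq promoters (300 bases, GRCm38.p6) were matched by symbol for 96 of the 128 symbols, 126 windows in all. A GC box was in 57.1% of them, against 35.7% of 32851 promoters of all genes, and a TATA box in 3.17% against 13.6%. The CCAAT box was in 36.5% against 37.4% and the AP-1 site in 5.56% against 7.81%. These are descriptions of letters in a window, not of binding. Some genes gave more than 1 window. A GC box was in 52.0% of 25 windows of 13 higher genes and in 1 of 3 windows of 3 lower genes (33.3%). It was in 66.7% of 39 windows of 33 tested genes that did not pass.

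The other genes of glycosaminoglycan synthesis came from lists of pathway genes. In these and the lists of the closing section 33 genes passed, of which 20 lost the call without pMSC 1 and 2. Of 13 tested heparan sulfate core proteins 4 were higher and none lower (30.8% called, beside the background of 19.4%, with 9.02% higher and 10.4% lower). Glypican-3 (Gpc3), which holds heparan sulfate at the membrane, measured 11.4, 10.1, 10.5 and 9.71 FPKM in pMSC libraries, against 3.74, 2.16, 2.56 and 2.20 FPKM in iwatMSC libraries (log2 FC 1.66, SE 0.13, adjusted p = 3.94e-05). Syndecan-3 (Sdc3) measured 18.1, 18.7, 18.2 and 20.7 FPKM in pMSC libraries, against 8.08, 8.66, 9.71 and 10.1 FPKM in iwatMSC libraries (log2 FC 0.98, SE 0.08, adjusted p = 6.4e-05). Neither overlapped between the groups. Syndecan-4 (Sdc4) averaged 126 ± 13.3 FPKM (pMSCs) and 77.6 ± 20.0 FPKM (iwatMSCs) (adjusted p = 0.0129) and perlecan (Hspg2), of the basement membrane, 71.9 ± 5.06 FPKM (pMSCs) and 48.8 ± 10.1 FPKM (iwatMSCs) (adjusted p = 0.0232). Hspg2 lost its call without pMSC 3, pMSC 4 or iwatMSC 3 (adjusted p between 0.0543 and 0.0621).

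Of 17 tested genes of glycosaminoglycan turnover 3 were higher and 2 lower (29.4% called, background 19.4%), the 6-O-endosulfatases in opposite directions. Sulf1, which removes 6-O-sulfate from heparan sulfate outside the cell, measured 61.0, 59.0, 76.1 and 60.7 FPKM in pMSC libraries, against 41.9, 26.4, 26.6 and 31.5 FPKM in iwatMSC libraries (log2 FC 1.02, SE 0.15, adjusted p = 0.00149). Sulf2, the second such enzyme, measured 25.5, 24.5, 23.2 and 28.4 FPKM in pMSC libraries, against 36.3, 28.8, 35.8 and 39.5 FPKM in iwatMSC libraries (log2 FC -0.45, SE 0.10, adjusted p = 0.0162). Neither overlapped, and the Sulf2 call was lost without pMSC 1 and 2 (adjusted p = 0.106). The lysosomal sulfatases Ids and Galns averaged 15.0 ± 0.955 FPKM (pMSCs) and 10.2 ± 0.543 FPKM (iwatMSCs) for Ids, and 17.4 ± 1.73 FPKM (pMSCs) and 12.1 ± 1.70 FPKM (iwatMSCs) for Galns and were higher (adjusted p = 0.00121 and 0.0136). Arsb, the lysosomal chondroitin 4-sulfatase, averaged 17.5 ± 2.24 FPKM (pMSCs) and 29.7 ± 3.09 FPKM (iwatMSCs) and was lower (log2 FC -0.73, adjusted p = 0.00149).

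**Figure D5:**
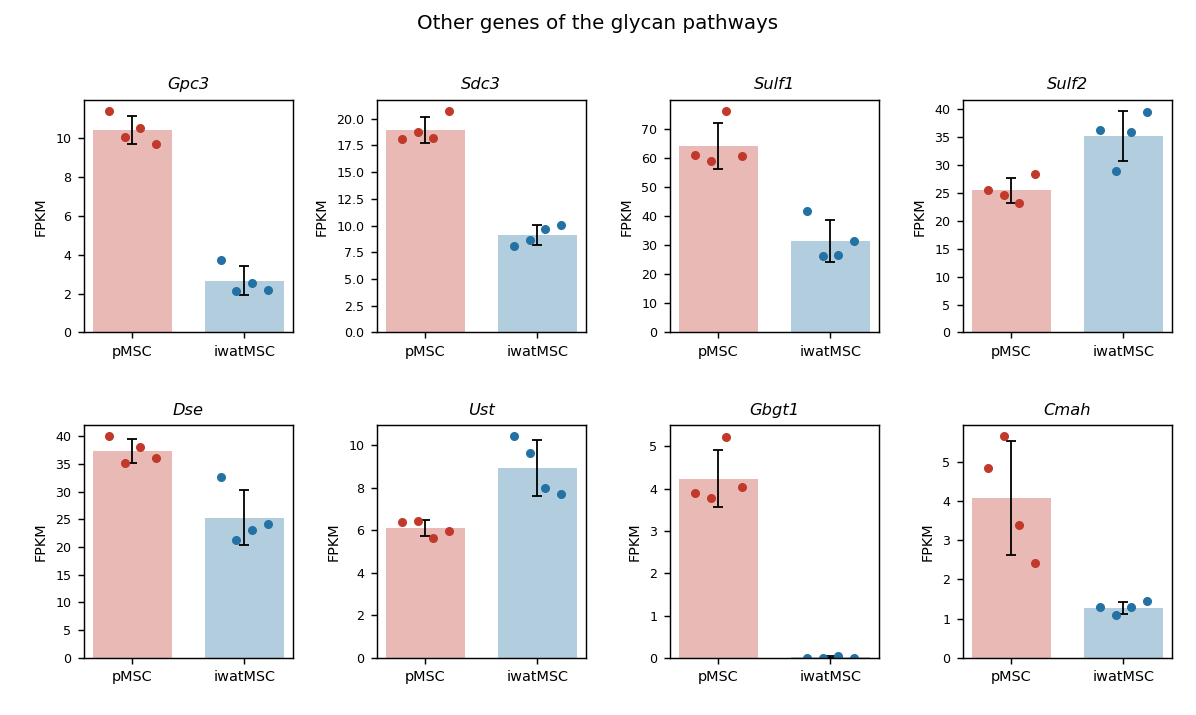
FPKM of 8 other genes of the pathways: the core proteins Gpc3 and Sdc3, the endosulfatases Sulf1 and Sulf2, the epimerase Dse, the sulfotransferase Ust, and Gbgt1 and Cmah. Points are libraries, bars group means and error bars SD (n = 4 each), and the groups did not overlap in any of the 8, with Sulf2 and Ust the ones lower in pMSCs.

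Of 6 tested epimerases and other sulfotransferases, Dse and Glce were higher and Ust lower (background 19.4% called). Dse, which converts glucuronic to iduronic acid in dermatan sulfate, averaged 37.3 ± 2.16 FPKM (pMSCs) and 25.3 ± 5.01 FPKM (iwatMSCs) (log2 FC 0.56, adjusted p = 0.0116), and Glce, which does so in heparan sulfate, 15.1 ± 0.485 FPKM (pMSCs) and 12 ± 1.04 FPKM (iwatMSCs) (adjusted p = 0.0185). Ust, the 2-O-sulfotransferase of chondroitin and dermatan sulfate, averaged 6.11 ± 0.365 FPKM (pMSCs) and 8.93 ± 1.302 FPKM (iwatMSCs) (log2 FC -0.47, adjusted p = 0.0114). All 3 calls were lost without pMSC 1 and 2 (adjusted p = 0.077, 0.125 and 0.0504). That of Glce was also lost without pMSC 1, pMSC 2 or iwatMSC 4 (adjusted p between 0.0503 and 0.0557). Of 10 tested genes of the linker and of chondroitin polymerization 1 was higher and 1 lower, a share near the background of 19.4%. Pxylp1, the phosphatase of the linker xylose, was higher at 25.6 ± 1.90 FPKM (pMSCs) and 17.9 ± 2.65 FPKM (iwatMSCs) (adjusted p = 0.0114). Csgalnact2, which starts chondroitin, was lower at 17.7 ± 0.704 FPKM (pMSCs) and 21.2 ± 1.85 FPKM (iwatMSCs) (adjusted p = 0.0492), a call lost without any 1 of the pMSC libraries or iwatMSC 2, 3 or 4 (adjusted p between 0.0752 and 0.115).

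Among 30 tested genes of nucleotide sugar and sulfate donor synthesis 13.3% were called, under the background of 19.4%. Galk1, which phosphorylates galactose, was higher at 40.4 ± 1.66 FPKM (pMSCs) and 32.5 ± 1.60 FPKM (iwatMSCs) (adjusted p = 0.00857). Galt, a uridylyltransferase of galactose metabolism, was lower, at 7.02 ± 0.749 FPKM (pMSCs) and 10.8 ± 1.33 FPKM (iwatMSCs) (adjusted p = 0.00551), as was the sulfate donor synthase Papss2 at 11.7 ± 0.681 FPKM (pMSCs) and 15.6 ± 2.09 FPKM (iwatMSCs) (adjusted p = 0.0232, on 1 of 3 annotated transcripts). Papss2 lost its call without pMSC 1 or iwatMSC 4 (adjusted p = 0.0652 and 0.056). None of the 15 Golgi transporter genes passed. The most abundant were the sulfate donor transporter Slc35b2, at 50.4 ± 2.16 FPKM (pMSCs) and 52.3 ± 2.41 FPKM (iwatMSCs), and the Golgi manganese transporter Tmem165, at 53.3 ± 2.65 FPKM (pMSCs) and 50.1 ± 3.81 FPKM (iwatMSCs) (adjusted p = 0.599 and 0.441).

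Of 12 other tested genes of O-GalNAc glycans, glycolipids and sialic acid removal 4 were higher and none lower (33.3% called, background 19.4%). Gbgt1, the Forssman glycolipid synthase, measured 3.90, 3.78, 5.23 and 4.05 FPKM in pMSC libraries, against 0, 0, 0.0460 and 0 FPKM in iwatMSC libraries, the largest log2 fold change among the transferase and pathway genes named (log2 FC 2.36, SE 0.11, adjusted p = 1.18e-06). Cmah, which converts the donor of N-acetylneuraminic acid to that of N-glycolylneuraminic acid, measured 4.85, 5.65, 3.38 and 2.41 FPKM in pMSC libraries, against 1.29, 1.08, 1.29 and 1.45 FPKM in iwatMSC libraries, with pMSC 1 and 2 the highest (log2 FC 1.11, SE 0.19, adjusted p = 0.00403). Gm2a, the activator of ganglioside breakdown, averaged 11.6 ± 1.47 FPKM (pMSCs) and 4.87 ± 0.917 FPKM (iwatMSCs) (log2 FC 1.10, adjusted p = 0.000423). C1galt1c1, the chaperone of the core 1 synthase, averaged 13.3 ± 0.559 FPKM (pMSCs) and 11.2 ± 0.248 FPKM (iwatMSCs) (adjusted p = 0.0274), and its call was lost without pMSC 1, pMSC 3, iwatMSC 3 or iwatMSC 4 (adjusted p between 0.0647 and 0.0796).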

How the data were processed

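RNA was measured in mesenchymal stromal cells sorted from pancreas and iWAT, 4 libraries each, grouped by the labelled organ. The authors deposited FPKM values per Ensembl transcript, made from mRNA-enriched BGISEQ reads with STAR, the GRCm38.p6 genome and StringTie. Both tools ran with default options for paired reads, which set no library strand. The annotation release is not given in the sources used here. Since the read depth is unknown, counting error cannot be given. StringTie shares reads out among overlapping transcripts and genes, which can shift their FPKM.

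Of 136535 transcripts, 136372 (99.88%) were matched by identifier to GENCODE M21, and unmatched ones held at most 0.0505% of a library's FPKM. FPKM were summed per gene with pandas 2.3.3 in Python 3.11.15. Genes or transcripts with a mean of 1 FPKM or more entered a limma 3.58.1 fit (R 4.3.3, lmFit and eBayes with trend, no covariates, two-sided) on log2(FPKM + 1), adjusted by Benjamini-Hochberg over all tested, called under 0.05 and tested on simulated data. This scale understates changes of low genes. Libraries were numbered in the order listed.

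The members, lists and promoters were chosen with earlier results of these data known. Named in the text were all called members with every library's value, up to 3 abundant uncalled members a role, and up to 4 called genes a list with the largest absolute log2 fold changes, except for a result that is not reported here. Other named genes (low members without overlap, members near the threshold, further uncalled members, Sulf2 and Man1a2) were chosen after their values were seen. Alternatives were other pseudocounts, filters and scalings, array weights, unequal-variance tests, and left-out libraries.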

Additional observations from a re-analysis of the deposited data

Results flagged for a closer look

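In 5 of 142 groups of 4 libraries (71 tested genes in both groups), 1 library lay far from the other 3, by a gap, as a share of the group's range, above Dixon's critical value. Chance gives about 7.1 such groups. Ext2, higher in pMSCs, was at 44.3 FPKM in pMSC 2, under the other pMSC libraries. B3gnt2, higher in pMSCs, was at 0.906 FPKM in iwatMSC 3, under the other iwatMSC libraries. Galnt1, lower in pMSCs, was at 55.8 FPKM in pMSC 1, above the other pMSC libraries. Fut11 was at 10.97 FPKM and Galnt12 at 5.65 FPKM in iwatMSC 1, both above the other iwatMSC libraries, and neither gene passed the test.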

How the results depend on the processing

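Across 19 alternatives, 7 called transferase genes (B3galt1, B3gnt8, Chst1, Galnt17, Gcnt2, St6galnac2 and Xylt1) kept their call in each one that could test them, 18 lost it in at least 1, and no called gene reversed. With array weights 25 genes were higher and 11 lower (26.2% of all genes called). With an unequal-variance test on FPKM, 7 genes were higher and 4 lower (7.62% of all genes), and 3 transcripts were higher. On log2 values that test gave 13 higher and 4 lower genes (10.7% of all genes). With a filter at a mean of 5 FPKM, where fewer were tested, 2 transcripts were higher, and without pMSC 1 and 2, with fewer libraries, also 2. With no filter 5 transcripts were lower. With 1 library left out, higher genes numbered 13 to 22 and lower genes 5 (without iwatMSC 4) to 10. The 22 and the 10 came without iwatMSC 1, where 21.3% of all genes were called, above the 19.4% of the main fit. Without any other single library 13.4% to 16.2% of all genes were called. Higher transcripts numbered 6 to 12 and lower transcripts 3 to 5 (without iwatMSC 1).

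The alternatives were followed for all called transferase genes but only for part of the uncalled ones. Hs3st1, Mgat3, Mgat5, B3galnt2, B4galnt1, B4galt2, B4galt3, B4galt4, B4galt6, Gcnt4, Galnt12 and Galnt16 did not pass and were not followed. Among the genes followed, only genes that did not pass reversed, all with small log2 fold changes. B4galt7 was 0.0718 without pMSC 1 and 2. Chst11 was 0.014 as TPM, 0.0091 after median-of-ratios scaling, 0.0117 with array weights and -0.1004 to 0.0841 with a library left out. Mgat1 was -0.0606 to 0.0886 and Fut10 -0.025 to 0.0915 with a library left out. B3galnt1 was 0.0094 as TPM, 0.0047 after median-of-ratios scaling, and -0.0789 to 0.0161 with a library left out. Their cause was not tested. Of 33 called genes of the other lists, with alternatives run after seeing the data, 25 lost the call in at least 1 and none reversed, and 10 of 12 called transcripts lost theirs.

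No paired analysis was possible because the sources do not say which pancreas and iWAT libraries share mice. With 4 libraries a group and unknown depth, genes near 1 FPKM are the least certain.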

Other observations

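The steps before and beside these enzymes gave further calls, in lists chosen with earlier results of these data known. Of 29 tested genes of N-glycan assembly and trimming 6 were higher in pMSCs and 1 lower, beside a background of 9.02% higher and 10.4% lower. Stt3a, a catalytic subunit of the oligosaccharyltransferase that attaches N-glycans to proteins, measured 134, 122.6, 109 and 111 FPKM in pMSC libraries, against 95.6, 68.1, 77.5 and 72.0 FPKM in iwatMSC libraries, without overlap (log2 FC 0.61, SE 0.11, adjusted p = 0.00552). Alg9, a mannosyltransferase that builds the lipid-linked precursor, averaged 17.7 ± 0.997 FPKM (pMSCs) and 14.1 ± 1.60 FPKM (iwatMSCs) (adjusted p = 0.0333), and its call was lost without pMSC 1, 2 or 3 or iwatMSC 1, 2 or 4 (adjusted p between 0.0601 and 0.0886). Man1a, a Golgi mannosidase that trims N-glycans, was the lower gene, at 22.5, 21.4, 19.2 and 18.3 FPKM in pMSC libraries, against 43.2, 32.6, 34.0 and 44.1 FPKM in iwatMSC libraries (log2 FC -0.88, SE 0.12, adjusted p = 0.000811), while its relatives Man1a2 and Man1c1 were higher, at 20.7 ± 0.610 FPKM (pMSCs) and 16.4 ± 1.05 FPKM (iwatMSCs) for Man1a2, and 17.0 ± 1.98 FPKM (pMSCs) and 12.9 ± 1.18 FPKM (iwatMSCs) for Man1c1 (adjusted p = 0.00995 and 0.0289). Man1c1 lost its call without pMSC 1, 3 or 4 or iwatMSC 2, 3 or 4 (adjusted p between 0.0607 and 0.0773). The calls of Stt3a, Alg9 and Man1a2 were lost without pMSC 1 and 2 (adjusted p = 0.0639, 0.198 and 0.0621).

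Of 24 tested genes of O-mannose and O-fucose glycosylation 3 were higher and 1 lower (16.7% called, background 19.4%). Lfng, which extends O-fucose on Notch, measured 4.23, 3.61, 2.82 and 3.01 FPKM in pMSC libraries, against 0.892, 1.01, 1.92 and 1.53 FPKM in iwatMSC libraries, without overlap (log2 FC 0.93, SE 0.16, adjusted p = 0.004). Eogt, which adds N-acetylglucosamine to EGF-like repeats, measured 13.6, 15.2, 12.4 and 13.0 FPKM in pMSC libraries, against 9.38, 7.55, 8.73 and 9.46 FPKM in iwatMSC libraries, without overlap (log2 FC 0.57, SE 0.09, adjusted p = 0.00248). Pofut1, which adds the O-fucose, averaged 10.8 ± 0.491 FPKM (pMSCs) and 8.498 ± 0.707 FPKM (iwatMSCs) (adjusted p = 0.0219), and its call was lost without pMSC 2, 3 or 4 or iwatMSC 3 (adjusted p between 0.0533 and 0.0621). Pomgnt2, which extends O-mannose on dystroglycan, was lower at 2.47 ± 0.403 FPKM (pMSCs) and 3.61 ± 0.517 FPKM (iwatMSCs) (adjusted p = 0.0409), a call lost without any of pMSC 1, 3 and 4 or iwatMSC 2, 3 and 4 (adjusted p between 0.0754 and 0.106). Without pMSC 1 and 2 the call of Eogt was kept and that of Lfng was lost (adjusted p = 0.0355 and 0.0509).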
